A study of Mus musculus with 6 samples.

Results

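Mural cells wrap the outside of blood vessels. They comprise vascular smooth muscle cells, which contract around arteries and veins, and pericytes, which sit on capillaries and share a basement membrane with the endothelium. Smooth muscle contraction rests on smooth muscle actins and on proteins that bind them, and transcription of many of these genes depends on serum response factor (SRF) with its coactivators of the myocardin family. Pericytes are recruited by PDGF-B from endothelial cells acting on PDGF receptor beta, and Notch3, activated by ligands on neighbouring cells, maintains mural cells around arteries. In adipose tissue, mural cells have also been described as one of the niches of adipocyte progenitors.

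The 10 genes described here are *Acta2*, *Actg2*, *Tagln*, *Cnn1*, *Smtn* and *Kcnmb1*, of the smooth muscle contractile apparatus, and *Rgs5*, *Pdgfrb*, *Notch3* and *Cspg4*, of pericytes and mural signalling. They were chosen by symbol from a table of read counts, and a symbol with several rows was represented by its row of highest total. Of the 10 genes, 8 had a row (20 rows of 37024 in all) and 6 had enough counts for the test, while *Acta2* and *Rgs5* were not analysed here. The table holds bulk RNA-Seq of inguinal white adipose tissue (iWAT), a subcutaneous fat depot, from mice on a C57BL/6 background fed a Western diet for 12 weeks. All mice carried *Lexis* fl/fl, a conditional allele of the long noncoding RNA *Lexis*. The 3 *Lexis*-AdWT mice had no Cre, and the 3 *Lexis*-AdKO mice also carried adiponectin-Cre, whose promoter is active in adipocytes. The ages of the mice used for sequencing are not given in the sources used here. In bulk tissue, fewer mural cells and less RNA of a gene per cell cannot be told apart.

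The libraries held between 14470542 and 17882713 counts, so that 3 counts, the one-sided upper limit used here for a count of 0 (two-sided Poisson intervals given below reach higher), came to between 0.179 and 0.206 CPM (counts scaled to a common library size), counting error alone considered. CPM were scaled by edgeR's TMM factors, and fold changes are AdKO over AdWT. Tests were quasi-likelihood tests in edgeR, adjusted over all 9872 rows tested by the Benjamini-Hochberg method. None of these rows (0%) had an adjusted *p* under 0.05, the smallest being 0.206, and 566 had an unadjusted *p* under 0.05. DESeq2 called 27 rows. *4930412L05Rik*, the gene in which 9 of the 16 *Lexis* FISH probes of the study have an exact match, had 8, 9 and 8 counts in the AdWT libraries and 21, 11 and 13 in the AdKO libraries (log2 fold change 0.87, edgeR adjusted *p* = 0.851). Its counts were thus no lower under the AdKO label than under the AdWT label, and AdWT and AdKO below name libraries by label.

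*Tagln* and *Notch3* were by far the most abundant of the mural genes. Together they made up between 96.3% and 97.9% of the summed CPM of the 8 genes with a row, a sum that was 521, 320 and 359 in AdWT replicates 1, 2 and 3 and 433, 483 and 437 in AdKO replicates 1, 2 and 3. The AdWT sums spanned all 3 AdKO sums. Divided by the length of the merged exons in kilobases, the level of *Tagln* lay between 57.7 and 119 CPM per kb over the 6 libraries, that of *Notch3* between 27.2 and 43.9, and that of *Cspg4* between 0.909 and 1.18, so these ranges did not overlap. Below them, *Actg2* (0.0428 to 1.42 CPM per kb), *Cnn1* (0.151 to 1.29), *Smtn* (0.0451 to 0.388) and *Kcnmb1* (0.0427 to 0.386) had ranges that overlapped one another, and those of *Actg2* and *Cnn1* also overlapped that of *Cspg4*. *Actg2*, *Cnn1*, *Smtn* and *Cspg4* had between 2 and 6 rows each, and genes with several rows may be undercounted, since how reads shared by rows were counted is not given in the sources used here.

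**Figure D1:**
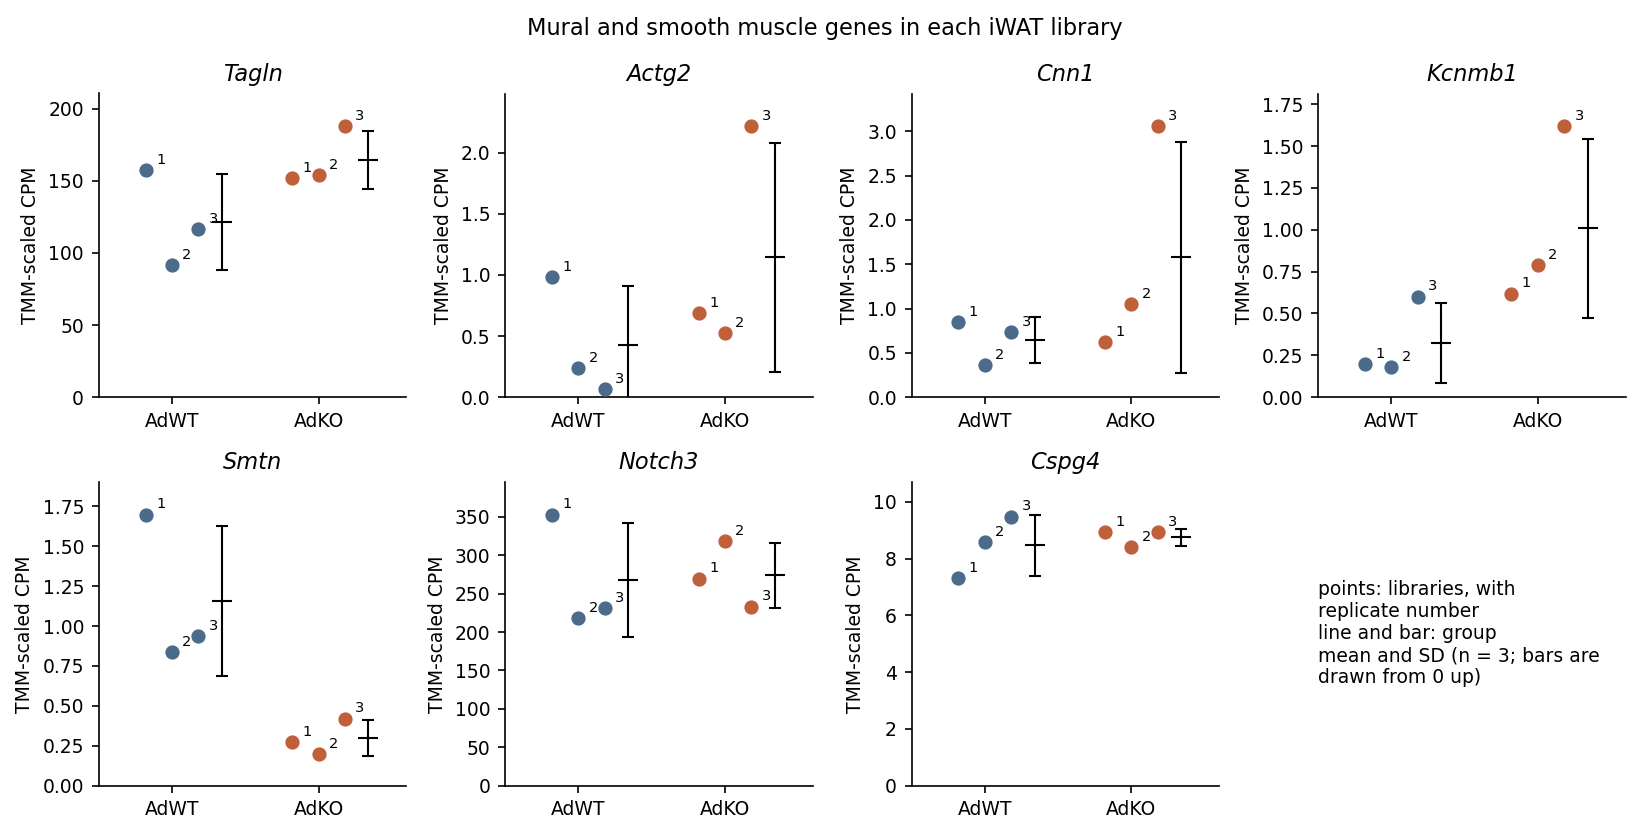
TMM-scaled CPM (y axis, linear from 0) of the 7 genes with more than 1 count, in the 3 AdWT and 3 AdKO libraries; points are libraries with their replicate number, and the bar beside each group is the mean and SD. AdKO replicate 3 is the highest library for *Tagln*, *Actg2*, *Cnn1* and *Kcnmb1*, AdWT replicate 1 for *Smtn* and *Notch3*, and the *Smtn* values of AdKO all lie below those of AdWT.

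*Tagln* encodes transgelin (SM22 alpha), an actin-binding protein of smooth muscle that is also present in some fibroblasts. The gene lies on the minus strand of chromosome 9 from 45737711 to 45744141 (mm9). It had 157, 91.6 and 116 CPM in AdWT replicates 1, 2 and 3 and 152, 154 and 188 CPM in AdKO replicates 1, 2 and 3. AdWT replicate 1 was within the range of the AdKO libraries and the other AdWT libraries were below it, so the groups overlapped. The means were 122 ± 33.3 CPM in AdWT and 165 ± 20.3 CPM in AdKO (SD, n = 3), a log2 fold change of 0.43 (standard error 0.191, 95% interval -0.012 to 0.88, edgeR adjusted *p* = 0.851). With each library left out in turn, this log2 fold change lay between 0.26 and 0.66. An exact, two-sided permutation test on log2(CPM + 0.5) gave *p* = 0.3, where 3 replicates against 3 allow no *p* below 0.1.

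*Cnn1* encodes calponin 1, an inhibitor of actomyosin ATPase and a marker of differentiated smooth muscle (chromosome 9, plus strand, 21903725 to 21914074, mm9). Its counts were 13, 6 and 11 in the AdWT libraries and 9, 16 and 51 in the AdKO libraries. The exact Poisson 95% interval of the 51 counts in AdKO replicate 3, from 38.0 to 67.1, lay above the intervals of the other 5 libraries, the highest of which, in AdKO replicate 2, reached 26.0. The mean level was 0.647 ± 0.257 CPM in AdWT and 1.58 ± 1.30 CPM in AdKO (SD, n = 3), and the groups overlapped. This gave a log2 fold change of 1.31 (standard error 0.638, edgeR adjusted *p* = 0.851), and it fell to 0.38 without AdKO replicate 3.

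*Actg2* encodes the gamma actin of enteric and other visceral smooth muscle (chromosome 6, minus strand, 83462899 to 83486259, mm9). It had 15, 4 and 1 counts in the AdWT libraries and 10, 8 and 37 in the AdKO libraries. AdKO replicate 3 was highest and AdWT replicate 1 second, and the 1 count in AdWT replicate 3 was below the floor of 3 counts. The Poisson interval of AdKO replicate 3, from 26.1 to 51.0 counts, lay above that of AdWT replicate 1, from 8.40 to 24.7. The mean level was 0.429 ± 0.485 CPM in AdWT and 1.14 ± 0.935 CPM in AdKO (SD, n = 3), and the groups overlapped. This gave a log2 fold change of 1.43 (standard error 0.852, edgeR adjusted *p* = 0.853), and it was 0.50 without AdKO replicate 3 and 2.83 without AdWT replicate 1. Intervals of this kind cover counting error only.

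*Kcnmb1* encodes the beta 1 subunit of the large-conductance calcium-activated potassium (BK) channel, which raises the channel's sensitivity to calcium in smooth muscle (chromosome 11, plus strand, 33863013 to 33873641, mm9). It had 3, 3 and 9 counts in the AdWT libraries and 9, 12 and 27 in the AdKO libraries, too few to pass the filter on low counts. In CPM this was 0.196, 0.179 and 0.601 in AdWT and 0.618, 0.789 and 1.62 in AdKO. The lowest AdKO library was just above the highest AdWT library, and the Poisson intervals of those libraries, both with 9 counts, were the same. With rows of at least 1 count in any library admitted, the log2 fold change was 1.63 (standard error 0.565, edgeR adjusted *p* = 0.840), and the exact permutation test gave *p* = 0.1, the smallest possible here. Of its 4142 exonic windows of 50 bases, 8 also occur in other genes, whereas no such shared window was found for the other genes with a row.

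*Smtn* encodes smoothelin, a cytoskeletal protein of contractile smooth muscle (chromosome 11, minus strand, 3417526 to 3440615, mm9), and went the opposite way. It had 26, 14 and 14 counts in the AdWT libraries and 4, 3 and 7 in the AdKO libraries. In CPM the values were 1.70, 0.836 and 0.935 in AdWT and 0.275, 0.197 and 0.420 in AdKO, and every AdKO library lay below every AdWT library. The Poisson intervals of all 3 AdKO libraries, which reached 10.2, 8.77 and 14.4 counts, overlapped those of AdWT replicates 2 and 3, which began at 7.65. The means were 1.16 ± 0.472 CPM in AdWT and 0.297 ± 0.113 CPM in AdKO (SD, n = 3). This gave a log2 fold change of -1.91 (standard error 0.460, 95% interval -2.99 to -0.84, edgeR adjusted *p* = 0.817), and the exact permutation test gave *p* = 0.1. It stayed between -2.25 and -1.53 with each library left out in turn. A further 5 rows of *Smtn* held at most 1 count in any library.

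*Smtn* was the one gene of the 6 tested with an unadjusted *p* under 0.05, against 5.73% of all rows tested in either direction and 2.98% in the direction lower in AdKO. It passed the filter on low counts through the AdWT libraries, with at most 7 counts in any AdKO library, and was not tested where at least 10 counts in every library were required, so these shares are no support for it. It was likewise the one of the 6 whose groups did not overlap, which held for 11.9% of all rows tested. Skeletal muscle markers also had lower values in the AdKO libraries. The summed CPM of the 10 with a row was 36.3, 182 and 20.2 in AdWT and 7.48, 6.45 and 6.60 in AdKO. *Ckm*, muscle creatine kinase, was at 0 in all 3 AdKO libraries and *Myh4* and *Tnnt3* were at 0 in all 6. The skeletal muscle sum was highest in AdWT replicate 2, whereas *Smtn* was highest in AdWT replicate 1, and the part of these markers in the *Smtn* result was not tested.

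**Figure D2:**
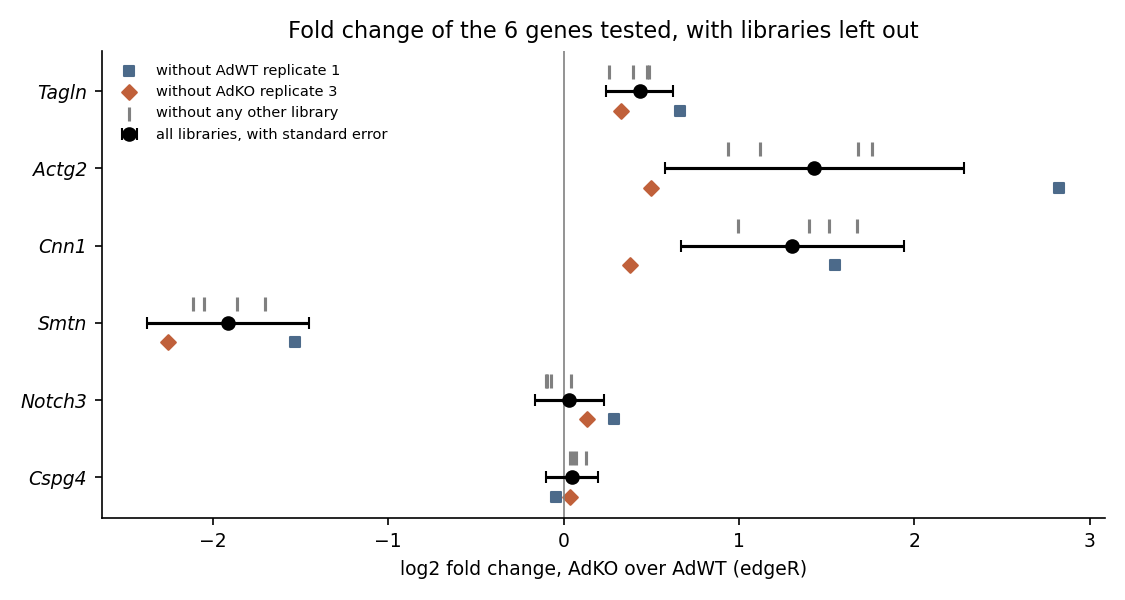
Log2 fold change of AdKO over AdWT (x axis) for the 6 genes tested (y axis), with all libraries (black, with standard error) and with libraries left out one at a time. *Cnn1* and *Actg2* move to 0.38 and 0.50 without AdKO replicate 3, *Smtn* stays between -2.25 and -1.53, *Cspg4* between -0.044 and 0.13, and *Notch3* between -0.10 and 0.28, highest without AdWT replicate 1.

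*Notch3* encodes the Notch receptor of mural cells (chromosome 17, minus strand, 32257765 to 32303825, mm9). Its counts were high, 5403, 3661 and 3456 in the AdWT libraries and 3927, 4836 and 3888 in the AdKO libraries. In CPM this was 353, 219 and 231 in AdWT and 270, 318 and 233 in AdKO. AdWT replicate 1 and AdKO replicate 2 were the high libraries, and the AdWT values spanned all AdKO values. The means were 267 ± 74.3 CPM and 274 ± 42.6 CPM (SD, n = 3), a log2 fold change of 0.033 (standard error 0.198, 95% interval -0.43 to 0.50, edgeR adjusted *p* = 0.983). With each library left out in turn it lay between -0.10 and 0.28, negative without AdWT replicate 2, AdWT replicate 3 or AdKO replicate 2 and highest without AdWT replicate 1. With AdWT replicate 1 and AdKO replicate 3 both left out it was 0.39 (edgeR adjusted *p* = 0.444).

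*Cspg4* encodes NG2, a chondroitin sulfate proteoglycan on the surface of pericytes and of some progenitor cells (chromosome 9, plus strand, 56712911 to 56747677, mm9). It had 7.32, 8.60 and 9.49 CPM in AdWT and 8.92, 8.42 and 8.94 CPM in AdKO, and was the steadiest of the genes tested, with a highest library 1.30-fold above the lowest. AdWT replicate 1, which was high for *Notch3*, was the lowest library here. The means were 8.47 ± 1.09 CPM in AdWT and 8.76 ± 0.295 CPM in AdKO (SD, n = 3), a log2 fold change of 0.049 (standard error 0.149, 95% interval -0.30 to 0.40, edgeR adjusted *p* = 0.962). It was -0.044 when AdWT replicate 1 was left out. *Pdgfrb*, which encodes the PDGF receptor that recruits pericytes, had 3 rows and 1 count in all, in AdKO replicate 3.

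A count near 0 in this table does not show that a gene was silent. Among the endothelial markers, *Cdh5* (VE-cadherin) had between 11798 and 17664 counts in each library, while *Kdr* (VEGF receptor 2), which the same cells express, had at most 2. In the same way *Myh11*, the smooth muscle myosin heavy chain, had at most 6 counts in a library, and the pericyte channel genes *Abcc9* and *Kcnj8* at most 2. Of the 10 mural genes, *Tagln*, *Notch3* and *Cspg4* had at least 112 counts in every library, and the defining actin of smooth muscle was not analysed here.

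AdKO replicate 3 and AdWT replicate 1 were each above their group mates for *Actg2*, *Cnn1*, *Smtn* and *Tagln*, and differed in *Notch3*, *Kcnmb1* and *Cspg4*. Of the 6 genes tested, 3 (*Actg2*, *Tagln* and *Cnn1*) were highest in AdKO replicate 3, against 14.3% of all rows tested. *Actg2* and *Cnn1* were each 3.66-fold above the mean of the other AdKO libraries there, and 2.75% of all rows tested were more than 2-fold above it. The genes were chosen with these 2 libraries known to run high, so nothing is read from these shares. For *Kcnmb1* this ratio was 2.30, for *Smtn* 1.78, for *Tagln* 1.23, for *Cspg4* 1.03 and for *Notch3* 0.794. In AdWT replicate 1, the ratio to the mean of the other AdWT libraries was 6.41 for *Actg2*, 1.92 for *Smtn*, 1.57 for *Notch3*, 1.55 for *Cnn1*, 1.51 for *Tagln*, 0.809 for *Cspg4* and 0.502 for *Kcnmb1*. *Notch3* was thus above the other libraries of its group in AdWT replicate 1 and not in AdKO replicate 3, and *Kcnmb1* the reverse. *Cspg4* was lowest in AdWT replicate 1, and AdKO replicate 3 was level with AdKO replicate 1 for it (8.94 and 8.92 CPM). *Smtn*, though higher in AdKO replicate 3 than in the other AdKO libraries, was there below every AdWT library.

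Epithelial markers were also high in AdKO replicate 3. The summed counts of 6 epithelial genes (*Krt5*, *Krt14*, *Krt8*, *Krt18*, *Epcam* and *Trp63*) were 23, 17 and 304 in AdWT and 15, 19 and 799 in AdKO. *Krt5* and *Krt14*, keratins of basal and myoepithelial cells, had 79 and 19 counts in AdKO replicate 3 and at most 9 and 1 in the other libraries, and *Trp63*, a basal cell transcription factor, had at most 2 in any. AdWT replicate 3, where these epithelial genes were second highest, had 1 count of *Actg2*, 11 of *Cnn1* and 9 of *Kcnmb1*. Its epithelial sum held 100 counts of *Krt8* and 173 of *Krt18*, but 9 of *Krt5* and 1 of *Krt14*. In AdKO replicate 3, *Krt8* and *Krt18* had 151 and 333 counts. The part of these cells in the contractile gene values of AdKO replicate 3 was not tested. *Oxtr*, the oxytocin receptor, was on the same list and had between 6591 and 12361 counts in every library.

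*Notch3* and the abundant endothelial markers were high in the same libraries. The summed CPM of the 7 endothelial markers with a row was 1458, 1089 and 1011 in AdWT and 1223, 1406 and 985 in AdKO, so AdWT replicate 1 and AdKO replicate 2 were the high libraries here as well. *Cdh5* made up most of this sum, *Cldn5* and *Tie1* had the same 2 highest libraries, and the low markers *Emcn* (10 to 33 counts, lowest in AdKO replicate 2) and *Vwf* (8 to 20 counts, highest in AdKO replicate 1) did not. Per 100 CPM of endothelial markers, *Notch3* had 24.2, 20.1 and 22.8 CPM in AdWT and 22.0, 22.6 and 23.7 CPM in AdKO. *Tagln* had 10.8, 8.41 and 11.5 CPM per 100 CPM in AdWT and 12.4, 10.9 and 19.1 in AdKO. On this scale *Notch3* was within a narrow range in all 6 libraries, and *Tagln* was in AdKO replicate 3 above the other libraries, which lay between 8.41 and 12.4. The ratio of *Tagln* to *Notch3* was 0.446, 0.419 and 0.504 in AdWT and 0.564, 0.483 and 0.806 in AdKO. These ratios were formed after the values had been seen and carry no test.

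**Figure D3:**
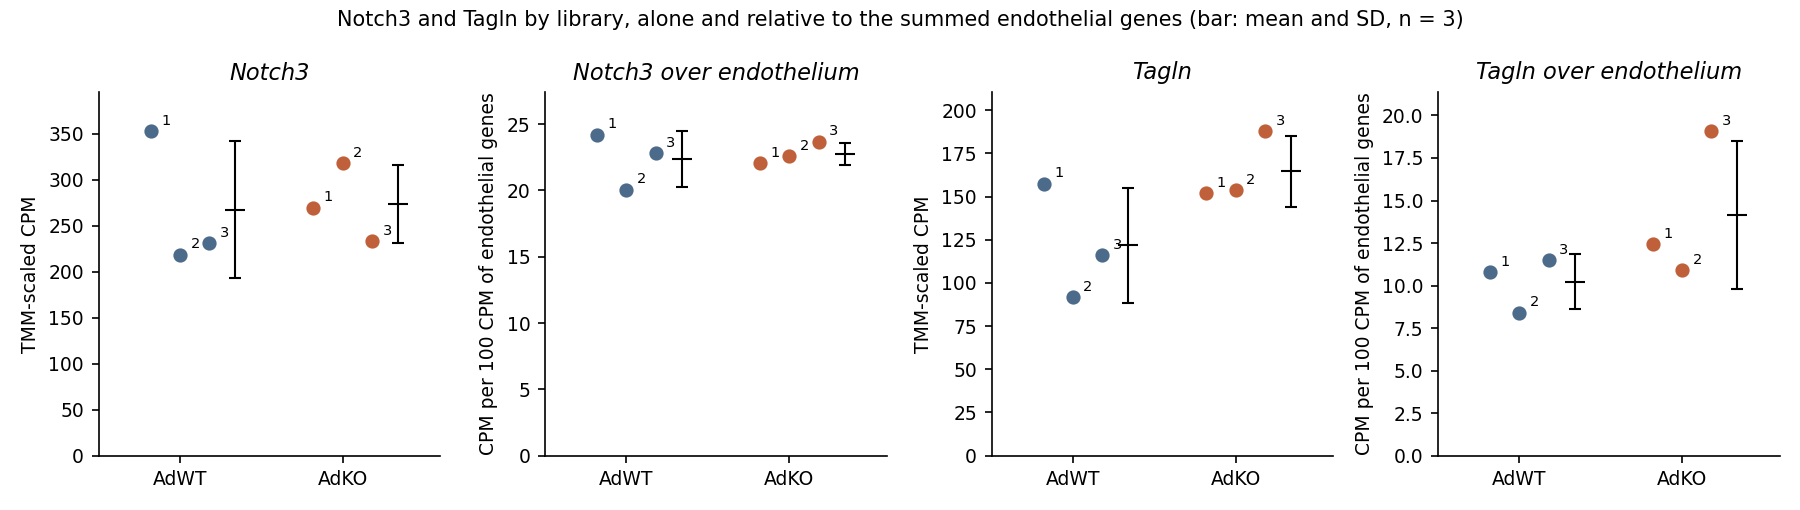
*Notch3* and *Tagln* in TMM-scaled CPM and in CPM per 100 CPM of summed endothelial markers (y axes, linear from 0), by library and group; points carry the replicate number, bars are mean and SD. *Notch3* spans 219 to 353 CPM but 20.1 to 24.2 per 100 endothelial CPM, and *Tagln* in AdKO replicate 3 stands at 19.1 with the other libraries between 8.41 and 12.4.

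Of 17 other genes of PDGF and Notch signalling, 11 were tested, 5 with a positive and 6 with a negative log2 fold change, a median of -0.018, and 8 of the 11 were highest in AdWT replicate 1, as were 14.6% of all rows tested. This list too was chosen with AdWT replicate 1 known to run high, and nothing is read from that count. *Heyl*, a transcriptional repressor induced by Notch in mural cells, had 55.1, 31.6 and 29.9 CPM in AdWT and 33.8, 50.5 and 26.8 CPM in AdKO, with AdWT replicate 1 and AdKO replicate 2 high as for *Notch3* (it was singled out after its values were seen). *Notch2* and *Notch1*, the most abundant receptors of the list, had log2 fold changes of -0.018 (edgeR adjusted *p* = 0.970) and -0.16 (edgeR adjusted *p* = 0.855). *Hey2*, a Notch target of arteries, was the one gene of the list with an unadjusted *p* under 0.05, against 5.73% of all rows tested (log2 fold change -0.63, edgeR adjusted *p* = 0.851). Its AdWT and AdKO libraries overlapped.

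Of 29 other genes of the contractile apparatus, 25 had a row and 17 were tested. Of these, 9 had a positive and 8 a negative log2 fold change, the median was 0.10, and 6 were highest in AdKO replicate 3 (14.3% of all rows tested). The list was chosen with AdKO replicate 3 known to run high, and nothing is read from that count of 6. In this list 1 gene had an unadjusted *p* under 0.05 (5.73% of all rows tested). That gene, *Synpo2* (synaptopodin 2, an actin-bundling protein also present in striated muscle), was the most abundant of the list, with 606, 784 and 989 CPM in AdWT and 590, 372 and 609 CPM in AdKO. The AdKO values overlapped that of AdWT replicate 1, for a log2 fold change of -0.60 (standard error 0.231, edgeR adjusted *p* = 0.851). *Vcl* (vinculin, a protein of actin anchorage sites), the next most abundant, had a log2 fold change of -0.11 (edgeR adjusted *p* = 0.885). *Itga8* and *Ppp1r12b* were at 0 in every library. The 10 genes set out at the start had a median log2 fold change of 0.24 over the 6 tested, 5 positive and 1 negative, where the median of all rows tested was 0.0071. Their median was 0.052 with at least 10 counts in every library required, which leaves *Tagln*, *Notch3* and *Cspg4*. It was 0.66 without AdWT replicate 1, where 7 of the genes were tested. With 8 tested, it was 0.69 with DESeq2 and 0.86 with rows of at least 1 count admitted. In these the gene set changed along with the setting.

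Other pericyte and mural markers numbered 21, of which 15 had a row and 10 were tested. Of these, 7 had a positive and 3 a negative log2 fold change, with a median of 0.15, and 3 had an unadjusted *p* under 0.05 (5.73% of all rows tested). *Steap4*, a metalloreductase found in adipocytes as well as in mural cells, was the most abundant, with 889, 996 and 900 CPM in AdWT and 1097, 1130 and 1075 CPM in AdKO. Its groups did not overlap (log2 fold change 0.25, edgeR adjusted *p* = 0.851). In this list 3 of the 10 tested did not overlap (*Steap4* and *Postn* higher in AdKO, *Mcam* lower), as for 11.9% of all rows tested. *Postn*, which encodes the matrix protein periostin of activated stromal cells, had 7, 7 and 5 counts in AdWT and 16, 11 and 20 in AdKO (log2 fold change 1.31, edgeR adjusted *p* = 0.847), and passed the filter on low counts through the AdKO libraries, so its place among the 3 is no support for a difference. *Mcam*, an adhesion molecule of mural and endothelial cells, had 33.2, 38.9 and 36.7 CPM in AdWT and 31.6, 26.0 and 30.9 CPM in AdKO (log2 fold change -0.30, edgeR adjusted *p* = 0.851). *Gucy1a3*, a subunit of the nitric oxide receptor, was the next most abundant (log2 fold change 0.21, edgeR adjusted *p* = 0.885), and *Gucy1b3* was at 0 in every library.

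Of 14 regulators of smooth muscle transcription, 8 were tested, 5 with a positive and 3 with a negative log2 fold change and a median of 0.035. Of the 8, 3 had an unadjusted *p* under 0.05, against 5.73% of all rows tested. *Klf4*, a repressor of contractile genes in smooth muscle, had 201, 188 and 186 CPM in AdWT and 215, 210 and 214 CPM in AdKO (log2 fold change 0.15, edgeR adjusted *p* = 0.851). *Gata6*, a factor of vascular smooth muscle, had a log2 fold change of 0.41 (edgeR adjusted *p* = 0.851), and *Smad3*, which carries TGF-beta signals, one of -0.23 (edgeR adjusted *p* = 0.851). For all 3 the groups did not overlap, as for 11.9% of all rows tested. *Srf* itself had a log2 fold change of 0.074 (edgeR adjusted *p* = 0.896), with 100, 103 and 115 CPM in AdWT and 110, 101 and 124 CPM in AdKO. Its highest library was AdKO replicate 3.

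Partners of *Kcnmb1* in calcium and potassium handling were mostly low. Of 15 genes listed, 11 had a row and 3 were tested, all with negative log2 fold changes and none with an unadjusted *p* under 0.05. *Ryr2*, a calcium release channel, had a log2 fold change of -0.25 (edgeR adjusted *p* = 0.853) and *Atp2b4*, a plasma membrane calcium pump, one of -0.52 (edgeR adjusted *p* = 0.853). *Kcna5* and *Cacna1c* were not analysed here. *Kcnma1*, the pore-forming subunit to which the *Kcnmb1* product binds, was at 0 in every library over 3 rows, as were *Kcnmb2* and the calcium channel gene *Cacna1h*.

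**Figure D4:**
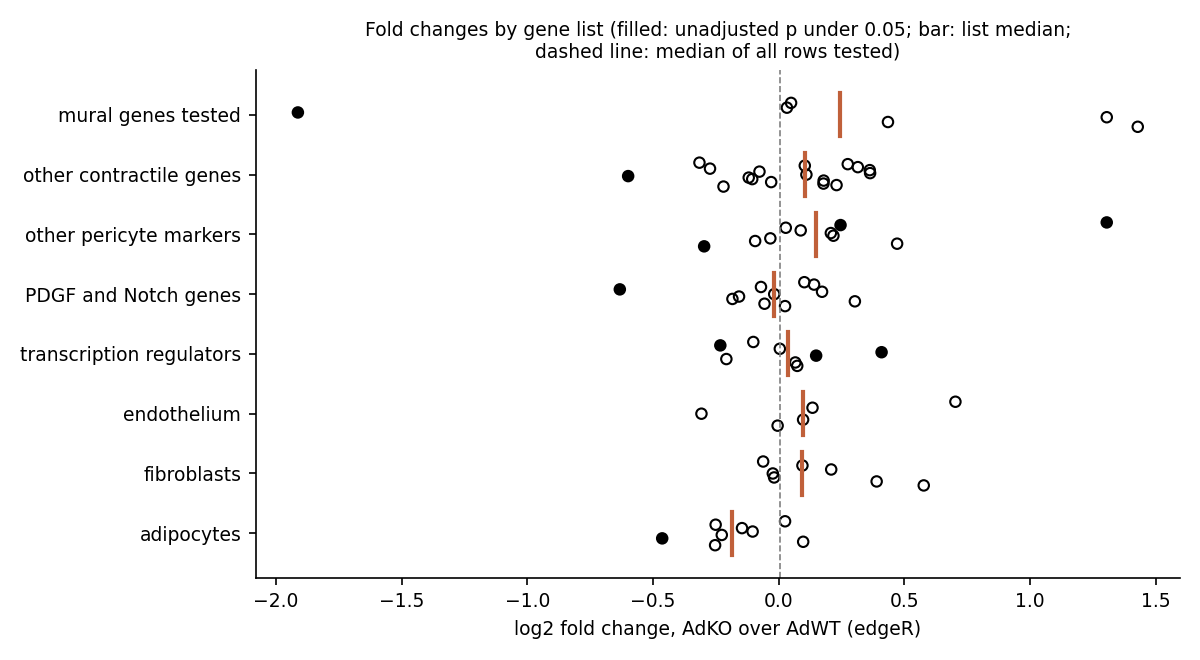
Log2 fold change of AdKO over AdWT (x axis) of the genes tested in 8 of the lists (y axis); filled points have an unadjusted *p* under 0.05 in edgeR's test, bars are list medians and the dashed line is the median of all rows tested. The median is 0.24 for the 6 mural genes tested and -0.19 for adipocytes, some lists not drawn have medians further from 0, and no gene had an adjusted *p* under 0.05.

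The markers of other cells in iWAT give the composition beside which these values stand. Summed adipocyte markers were between 57059 and 63876 CPM in AdWT and between 51981 and 53811 CPM in AdKO, with *Fabp4*, a fatty acid binding protein, making up the largest share. Of the 8 tested, 2 had a positive and 6 a negative log2 fold change, and *Lep*, which encodes leptin, had an unadjusted *p* under 0.05 (log2 fold change -0.46), against 5.73% of all rows tested. Fibroblast markers summed to between 7743 and 10157 CPM in AdWT and between 8555 and 13796 CPM in AdKO, macrophage markers to between 625 and 1204 and between 1054 and 1254, Schwann cell markers to between 111 and 161 and between 124 and 148, and lymph node markers to between 5.21 and 15.8 and between 5.76 and 11.1. The median log2 fold change was 0.40 over the 5 macrophage markers tested, 0.24 over the 4 of Schwann cells, -0.42 over the 2 of lymph node, -0.34 over the 3 genes of calcium and potassium handling and -3.50 over the 7 of skeletal muscle. Of the skeletal muscle genes, *Ckm*, *Tcap* and *Atp2a1* passed the filter on low counts through the AdWT libraries, and all 3 were highest in AdWT replicate 2. The skeletal muscle median is therefore no support for a difference. *Pnpla2*, *Emr1*, *Mag* and *Cr2*, defining markers of adipocytes, macrophages, Schwann cells and B cells of lymph nodes, were at 0 in every library. The adipocyte sums were the ones among these 5 that did not overlap between the groups, and their part in the mural gene values was not tested. Outside these 5, the skeletal muscle sums given above did not overlap either. Nor did those of the other pericyte and mural markers (1133 to 1211 CPM in AdWT, 1299 to 1403 CPM in AdKO).

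Many contractile genes carry CArG boxes, the sites that SRF binds, which consist of 2 C, 6 bases that are A or T, and 2 G. Promoters of RefSeq genes (GRCm38.p6, from 250 bases before to 50 after the start of transcription) were searched on both strands, overlapping matches included. An exact CArG box was present in 425 of 27025 promoters (1.57%), and a match with at most 1 base off in 5772 (21.4%). Of the 10 mural genes, the promoters of 7 were counted here (*Acta2*, *Rgs5*, *Cnn1*, *Cspg4*, *Smtn*, *Kcnmb1* and *Notch3*). Those of the other mural genes were not analysed. None of the 7 had an exact match, and 2, *Acta2* and *Cspg4*, had a match with 1 base off. In the list of other contractile genes, 3 of 27 promoters (11.1%) had an exact match, and so did that of *Srf*. They are printed here because SRF is the shared regulator of the contractile genes described above, with the match in capitals and 10 bases on either side. For *Acta2* the positions are chr19:34255438-34255467 and chr19:34255388-34255417 (minus strand), for *Cspg4* chr9:56864856-56864885 (plus strand, with a second match starting 1 base on), for *Myl9* chr2:156775293-156775322, for *Cnn2* chr10:79988534-79988563 and for *Vcl* chr14:20929161-20929190 (plus strand), and for *Srf* chr17:46556225-46556254 and chr17:46556205-46556234 (minus strand).
*Acta2*, upstream match, 1 base off: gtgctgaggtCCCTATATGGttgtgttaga
*Acta2*, downstream match, 1 base off: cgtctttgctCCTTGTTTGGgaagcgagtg
*Cspg4*, 1 base off: tgtcccaaacCCTTAAAATGgggcatgggt
*Myl9*, exact: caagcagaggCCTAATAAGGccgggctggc
*Cnn2*, exact: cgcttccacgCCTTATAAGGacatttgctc
*Vcl*, exact: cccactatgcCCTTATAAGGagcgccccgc
*Srf*, upstream match, exact: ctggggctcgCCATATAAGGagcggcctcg
*Srf*, downstream match, exact: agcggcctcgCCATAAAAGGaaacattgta

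The contractile genes with an exact match differed in the library in which they were highest. *Myl9*, the regulatory light chain of smooth muscle myosin, had a log2 fold change of 0.23 (edgeR adjusted *p* = 0.853) and was highest in AdKO replicate 3. *Cnn2*, a calponin present in many cell types, had a log2 fold change of 0.10 (edgeR adjusted *p* = 0.891) and was highest in AdWT replicate 1, and *Vcl*, given above, was highest in AdWT replicate 3. These 3 genes were singled out by their promoters. A match to the CArG box is a description of these bases and does not show binding.

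The genes whose levels over the 6 libraries were most like those of the mural genes were sought among 6456 rows with a mean of at least 50 counts. Likeness was the root mean square difference between centred log2 values. The average of the 4 contractile genes tested lay 0.68 above its mean in AdKO replicate 3 and 0.36 above it in AdWT replicate 1, and from -0.43 to -0.15 relative to it in the other libraries. *Smtn* went against this average in AdKO replicate 3, at -0.30, where *Actg2* and *Cnn1* were at 1.27 and 1.31. The closest rows were *Ncf4* (0.134), a subunit of the phagocyte NADPH oxidase, *Cd24a* (0.137), a surface glycoprotein of immune and epithelial cells, *Slc9a4* (0.167), a sodium-proton exchanger, *Gprc5a* (0.167), an orphan receptor of epithelia, and *Gm5431* (0.182). The average of *Notch3* and *Cspg4* lay between -0.14 and 0.11 relative to its mean, and the closest rows were *Hps6* (0.0191), *Sirt6* (0.0194), *Eid2b* (0.0260), *Zbtb22* (0.0277) and *Rnf40* (0.0312). No test was made of these profiles, which rest on 6 libraries.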

How the data were processed

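Total RNA from iWAT of 6 mice (3 *Lexis*-AdWT, 3 *Lexis*-AdKO) was sequenced from stranded libraries. The authors used HISAT2 and mm9 for alignment, and the values they deposited are unnormalized read counts for each row. The counting tool is not given in the sources used here. Groups came from the sample titles. The snRNA-Seq data of the study were not used here.

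Counts were analysed with R 4.3.3, edgeR 4.0.16 (filterByExpr by group, TMM, glmQLFit, glmQLFTest, Benjamini-Hochberg adjustment, threshold 0.05) and DESeq2 1.42.0 as an alternative, and Python 3.11.15. Standard errors were the fold change (log2) over the square root of F. CPM are counts over the TMM-scaled library size, and permutation tests used log2(CPM + 0.5). The fits were tested on simulated data (seed 1). Total counts were between 14470542 and 17882713, and the biological coefficient of variation was 0.196. Replicates were separate mice. Genes were annotated with GENCODE vM1 and promoters with RefSeq.

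The 10 genes and the lists (other contractile genes, pericyte markers, PDGF and Notch, transcription regulators, calcium and potassium handling, actins, and markers of endothelium, fibroblasts, adipocytes, skeletal muscle, Schwann cells, epithelium, macrophages and lymph node) were chosen with earlier results of these data known. The 4 actins listed were not analysed here. From each list of mural genes, those with an unadjusted *p* under 0.05 and the 2 most abundant are named, and of the other markers those that define a cell type or are at 0. Alternatives were DESeq2, other scalings and filters, a robust fit, rows of a symbol summed, the replicate number as a block, and libraries left out. Same-numbered libraries did not deviate together throughout (correlations -0.10, -0.12 and 0.35).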

Additional observations from a re-analysis of the deposited data

How the results depend on the processing

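No mural gene had an adjusted *p* under 0.05 in any setting, but DESeq2 gave none to *Actg2*, *Cnn1* and *Smtn*. Over all rows, 27 had one with DESeq2 and 1 with rows of at least 1 count admitted. Leaving out each library gave between 0 and 1 such rows, the 1 without AdKO replicate 3, and 1 was found with AdWT replicate 1 and AdKO replicate 3 both left out. Mural genes with an unadjusted *p* under 0.05 numbered 1 in the reported fit (566 of all 9872 rows), 3 with DESeq2 (473 of 19554), 4 with rows of at least 1 count admitted (845 of 19554), 0 with at least 10 counts in every library (which removes *Smtn*), 3 with those 2 libraries left out (1080 of 9880; *Tagln*, *Smtn* and *Notch3*, with log2 fold changes of 0.56, -1.87 and 0.39), and between 1 and 3 with each library left out (from 329 of 10286 without AdWT replicate 2 to 1208 of 10204 without AdWT replicate 1). With the replicate block they numbered 2 (*Smtn* and *Tagln*; 418 of all 9872 rows) and the blocked fit had 0 rows with an adjusted *p* under 0.05; the numbers do not pair the mice. The median log2 fold change, 0.24 as reported, was 0.69 with DESeq2 and 0.86 with rows of at least 1 count admitted, settings that test more of the 10 genes. It was 0.052 with at least 10 counts in every library, which tests 3 of them. With each library left out it was between 0.23 and 0.66, highest without AdWT replicate 1. The fits without an AdWT library or without AdKO replicate 1 tested 7 of the 10 genes, against 6 as reported, so their gene set differed too.

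The log2 fold change of *Cspg4* was between -0.044 and 0.13 and that of *Notch3* between -0.10 and 0.28 with each library left out, and that of *Cspg4* was -0.060 with AdWT replicate 1 and AdKO replicate 3 both left out. In these the cause was not tested. *Actg2*, *Cnn1*, *Smtn* and *Tagln* kept their direction in every setting in which they were tested; *Actg2* could not be tested with both libraries left out. Other scalings, a robust fit and summed rows changed no direction. *Actg2*, *Cnn1*, *Smtn* and *Kcnmb1* rest on low counts.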
